A study of Mus musculus with 4 samples.

Results

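The EGFP-positive cells (pHes1_EPCs) and EGFP-negative cells (pHes1_ENCs) of the retina at postnatal day 4 (P4) were compared gene by gene. This comparison used 2 of the 4 RNA-seq libraries of the series, 1 for each fraction, and 21826 genes. The other 2 libraries hold the same fractions at postnatal day 1 (P1) and were used where the ages are set side by side. All mice were FVB/N by the sample labels and carried pHes1-EGFP, a transgene in which a fragment of the Hes1 promoter drives a destabilized EGFP, so the pHes1_ENCs are transgenic cells too and not cells of wild-type mice. The methods of the study also name ICR mice, without saying for which experiments, and the labels were followed here. Dissociation with trypsin and staining with propidium iodide preceded the sort by EGFP, for which the methods name no antibody against a surface protein. Each fraction is therefore a mixture of cells, defined by the activity of that promoter fragment at the moment of sorting. With 1 library in each group no spread between mice or sorts could be measured, and every difference below is a description without a test.

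Hes1 is a transcription repressor that Notch signaling switches on. In the retina, Notch ligands on a differentiating neuron activate Notch receptors on its neighbors, and the Hes and Hey repressors of the neighbor then hold back proneural factors such as Neurog2. Progenitors divide under this control, and at the end of retinal neurogenesis the cells that keep Hes1 and Hes5 become Müller glia, the radial glia that span the retina and supply its neurons. Rod photoreceptors, the most abundant neurons of the mouse retina, are formed around birth and build up their phototransduction proteins over the first postnatal weeks.

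The values are FPKM from Cufflinks, which divide the fragments of a gene by transcript length in kilobases and by library size, counted in units of 1000000 fragments. Summed over genes they gave 303870 in P4 pHes1_ENCs against 372014 in P4 pHes1_EPCs, and 11458 and 11939 genes, respectively, had an FPKM of at least 1. The relative width of the intervals implies 14.2 times 1000000 reads for pHes1_ENCs and 14.5 times 1000000 for pHes1_EPCs, and 1 read was worth 0.980 times as much in pHes1_EPCs as in pHes1_ENCs. The 95% interval of a gene with an FPKM near 10 reached 9.81% to either side in pHes1_ENCs and 9.05% in pHes1_EPCs, and near 100 these shares were 4.19% and 4.39%. Ranges after a ratio come from these intervals and cover counting error only. Differences were formed on the log2(FPKM + 1) scale, as pHes1_EPCs less pHes1_ENCs, so that a positive value is higher in pHes1_EPCs. This scale understates the change of genes with low FPKM. Differences beyond 1 in size are called 2-fold.

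Among all genes, 2150 were more than 2-fold higher in P4 pHes1_EPCs (9.85% of the genes compared) and 1184 were more than 2-fold lower (5.42%). These genes all lay among the 12390 that reached an FPKM of 1, so both shares are larger among expressed genes. The shares over all genes are the background for each P4 list count below. The median difference over the 12390 genes that reached an FPKM of 1 was 0.17, so that a gene at the middle of the distribution was already slightly higher in pHes1_EPCs. When both libraries were rescaled to the same FPKM total, this median moved by -0.26 and the counts became 1575 higher and 1698 lower. Quantile normalization moved it by -0.19 and gave 1582 and 1609, and median-of-ratios scaling moved it by -0.14 and gave 1800 and 1430. The excess of higher over lower genes at 2-fold therefore depended on the scaling. In bulk libraries of sorted cells, fewer cells of a type and less RNA per cell cannot be told apart, which holds for every difference that follows.

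The counts were also taken at larger differences. Among the 7786 genes that reached an FPKM of 10 in a P4 library, 1291 exceeded 2-fold toward pHes1_EPCs (16.6%) and 779 toward pHes1_ENCs (10%). Beyond 4-fold the counts were 524 and 242, beyond 8-fold 195 and 16, and beyond 16-fold 46 and 6. Without genes whose estimate failed in a P4 library, the last pair was 44 and 4, and the 4 are Beta-s, Hba-a1 and Hbb-b1, which are globin genes, and Gm10052. At P1 the balance was reversed at large differences. Of 7648 genes selected in the same way at P1, 876 were more than 2-fold higher (11.5%) and 808 more than 2-fold lower (10.6%) in pHes1_EPCs, and beyond 8-fold the counts were 7 and 170. At P4, 61 genes reached an FPKM of 10 in pHes1_EPCs while staying below 1 in pHes1_ENCs, and 7 genes had the reverse pattern. Failed estimates account for some of these, among them Srsf5 and Ankrd33b in the first group and Eif4g2 and Gspt1 in the second, and without failed estimates the counts were 59 and 4. The 61 include the mitotic genes Bub1, Cdc25c, Cdca5 and Cep55, picked for mention after the values were seen. At P1 these counts were 6 and 81, or 1 and 78 without failed estimates.

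**Figure D1:**
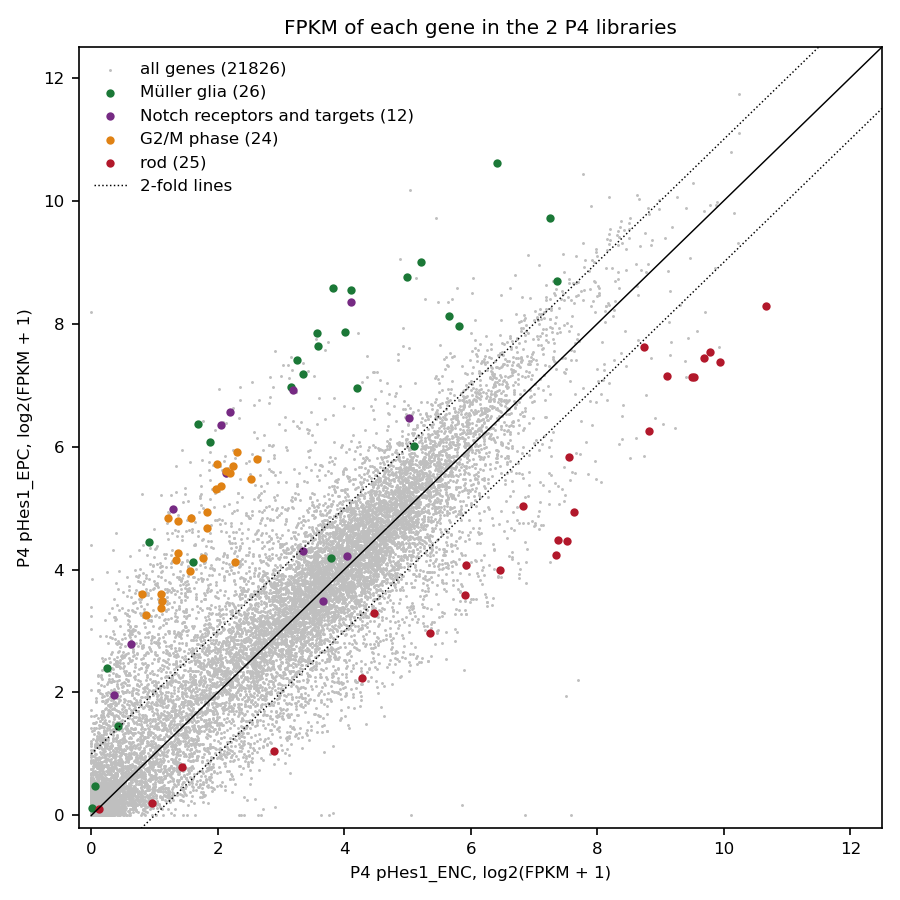
Each point is a gene, with log2(FPKM + 1) in P4 pHes1_ENCs on the x axis and in P4 pHes1_EPCs on the y axis, and 4 gene lists are colored. The 24 genes of the G2/M list all lie above the upper 2-fold line, and 22 of the 25 rod genes lie below the lower one.

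The genes at the ends of the range were taken among those that reached an FPKM of 10 in a P4 library, with intervals that do not overlap and the Cufflinks status OK, its mark for a completed estimate. The highest difference was that of Crym, which encodes the thyroid hormone binding protein mu-crystallin. Its FPKM was 31.8 in P4 pHes1_ENCs against 1158.5 in P4 pHes1_EPCs, a ratio of 36.5 (range 32.6 to 41.2). Crym lies on the minus strand of chromosome 7, at 127329898 to 127345502 in mm9. It was one of the 10 transcripts with the highest FPKM in pHes1_EPCs.

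The next genes in this order were Cox4i2, Rlbp1, Fxyd1, Id3, Npy and Pdpn, with differences of 4.91, 4.77, 4.69, 4.66, 4.65 and 4.62. Rlbp1 encodes the retinaldehyde binding protein of the visual cycle in Müller glia, and its FPKM was 13.1 in pHes1_ENCs against 384 in pHes1_EPCs, a ratio of 29.3 (26.4 to 32.8). Cox4i2, an isoform of a subunit of cytochrome c oxidase, had an FPKM of 3.07 and 122 in this order, a ratio of 39.6 (27.2 to 66.5). Npy, which encodes neuropeptide Y, had 2.41 and 84.4, a ratio of 35.1 (21.7 to 71.4). The lower level rested on few reads for Cox4i2, Fxyd1 and Npy and their ranges are accordingly wide.

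Prss23, S1pr3, Sparc, Pmel, Gstm1, Ncald, Hes1 and Entpd2 completed the 15, with differences from 4.52 down to 4.35. S1pr3 is a receptor for sphingosine 1-phosphate, Sparc a secreted matrix protein, Gstm1 a glutathione S-transferase and Entpd2 an ectonucleotidase. Hes1 itself, whose promoter fragment defined the sort, had an FPKM of 3.59 in pHes1_ENCs against 93.5 in pHes1_EPCs, a ratio of 26.1 (20.2 to 35.5). At the other end of the order, the 3 lowest genes were the haemoglobin genes Hbb-b1, Beta-s and Hba-a1, which are considered with the other red blood cell genes. Apart from these and the pseudogene Pisd-ps1, the differences of the 15 lowest genes lay between -3.53 and -2.90. They include Rpgrip1 and Rp1, proteins of the photoreceptor cilium, Rbp3, the retinoid binding protein that photoreceptors secrete, and Doc2b, a calcium sensor of exocytosis. Rbp3 had an FPKM of 599.7 in pHes1_ENCs against 77.8 in pHes1_EPCs, which is 7.71 times as much in pHes1_ENCs (7.45 to 7.98). For Rpgrip1 the values were 163 and 18.0, a factor of 9.06 (8.4 to 9.79). Each of the 15 highest genes had an FPKM ratio above 16, a size that no photoreceptor gene reached in the other direction.

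**Figure D2:**
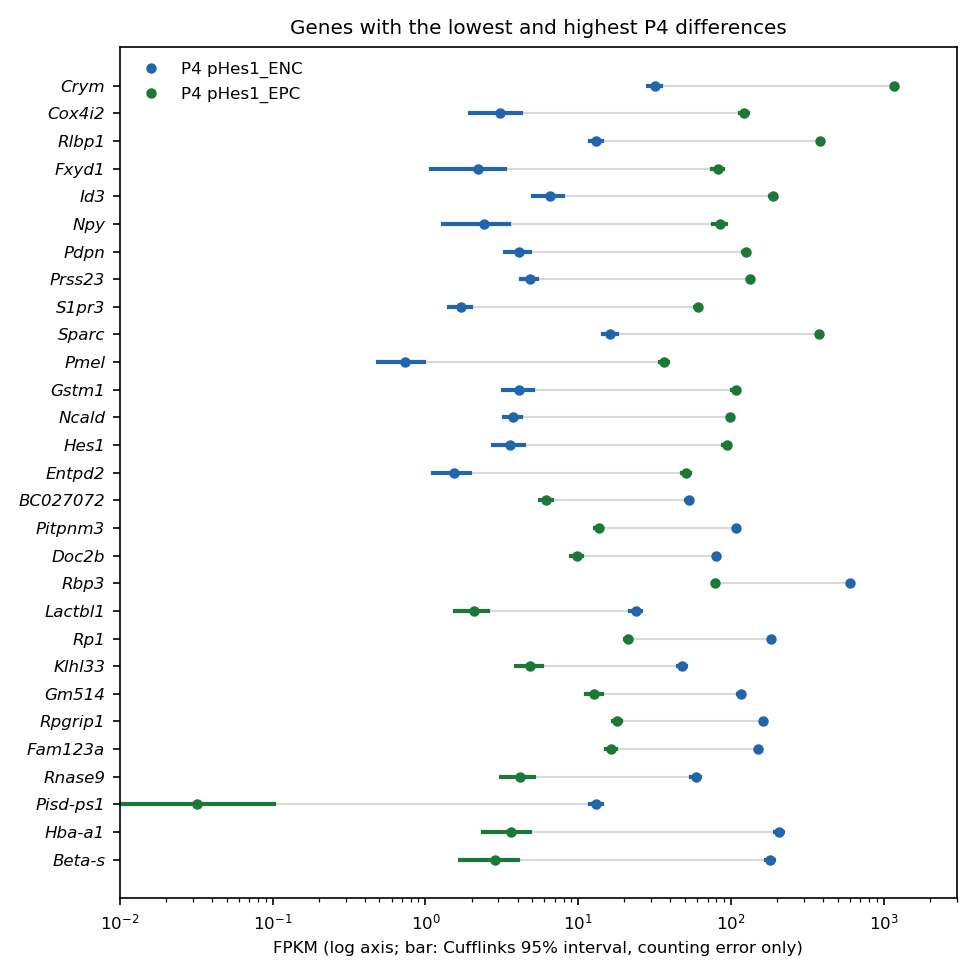
FPKM on a log axis in P4 pHes1_ENCs (blue) and P4 pHes1_EPCs (green) for the 15 genes with the highest and 14 of the 15 with the lowest P4 difference, with bars for the 95% interval of counting error. Hbb-b1, at almost 0 in pHes1_EPCs, is left out, and the blue and green intervals do not overlap for any gene shown.

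Of the 26 genes of the Müller glia list, 22 exceeded 2-fold toward pHes1_EPCs at P4 and none was more than 2-fold lower. Of all genes 9.85% and 5.42% did so, and of genes that reached an FPKM of 10 in a P4 library 16.6% and 10%. The median difference of the list was 3.65, against 0.17 for expressed genes in general. Its summed FPKM was 735 in pHes1_ENCs against 6523 in pHes1_EPCs. Beside Rlbp1 and Fxyd1, the highest were Sparc, the growth factor Ptn, the carbonic anhydrase Car14 and Dbi, the acyl-CoA binding protein. Dbi had an FPKM of 83.9 in pHes1_ENCs against 1557 in pHes1_EPCs, a ratio of 18.6 (16.8 to 20.6). For Slc1a3, the glial glutamate transporter, the FPKM was 15.1 and 231, a ratio of 15.3 (14.1 to 16.8). For Apoe, a lipid carrier, it was 152 and 838, a ratio of 5.51 (5.19 to 5.85). Apoe and Gpm6b had the highest levels of the list in pHes1_ENCs, and Gpm6b, a membrane proteolipid, had the lower ratio of the pair, 2.52 (2.42 to 2.63), and a difference of 0.91 with quantile normalization.

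Some genes of mature Müller glia were near 0 in both fractions. Aqp4, the water channel of their endfeet, had an FPKM of 0.0402 in pHes1_ENCs against 0.395 in pHes1_EPCs, and Abca8a had 0.00363 and 0.0853. Kcnj10, their potassium channel, had an FPKM of 20.7 in pHes1_EPCs and 0.879 in pHes1_ENCs. Clu, which encodes clusterin, differed by 0.41 and the retinol dehydrogenase Rdh10 by 0.91, both short of 2-fold. The list of astrocyte genes, the other glia of the retina, had a median difference of 0.10 over 8 genes, with 2 higher and 1 lower at 2-fold and sums of 63.8 and 27.7. Of these, Gfap stood at 1.21 and 0.860, Pax2 at 1.03 and 0.954 and S100b at 1.02 and 1.16 in pHes1_ENCs and pHes1_EPCs, respectively. The largest difference in size was that of the lower gene, Slc1a2, a glutamate transporter that retinal neurons also express. It had 56.0 in pHes1_ENCs against 10.2 in pHes1_EPCs.

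Of 12 Notch receptors, effectors and targets, 9 were more than 2-fold higher in pHes1_EPCs, against 9.85% of all genes. None was lower by that much, and the median difference was 2.80. The 9 include Hes1, whose promoter fragment defined the sort. Hes5, a repressor like Hes1, had an FPKM of 16.3 in pHes1_ENCs against 324 in pHes1_EPCs. Lfng, a glycosyltransferase that modifies Notch, had 3.15 and 80.8, a ratio of 25.6 (20.7 to 33.0). Nrarp, a feedback inhibitor of the pathway, had 8.08 and 121, a ratio of 14.9 (12.9 to 17.6), and Heyl and Hey2 had ratios of 21.1 (17.3 to 26.4) and 13.8 (11.2 to 17.4). Among the receptors, Notch1, the most abundant, had 31.4 and 87.6, a ratio of 2.79 (2.64 to 2.94), while Notch2 had 0.538 and 5.89 and Notch3 0.289 and 2.88. The nuclear partners were nearly level, with differences of 0.19 for Rbpj, the DNA binding protein of the pathway, and -0.18 for the coactivator Maml1.

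Rbpj binds a site whose core reads TGGGAA. In RefSeq windows of 300 bases (GRCm38.p6, 250 bases before to 50 after the start of the gene), these letters or their reverse complement stood in 4 of the 9 windows found for the Notch list and in 24.1% of 15167 windows of all genes. The windows of Lfng and Hes5, the members with the largest differences among those that hold the core, are printed 5′ to 3′ on the strand of the gene, with the core in capitals.
Lfng, chr5:140607091-140607390, plus strand: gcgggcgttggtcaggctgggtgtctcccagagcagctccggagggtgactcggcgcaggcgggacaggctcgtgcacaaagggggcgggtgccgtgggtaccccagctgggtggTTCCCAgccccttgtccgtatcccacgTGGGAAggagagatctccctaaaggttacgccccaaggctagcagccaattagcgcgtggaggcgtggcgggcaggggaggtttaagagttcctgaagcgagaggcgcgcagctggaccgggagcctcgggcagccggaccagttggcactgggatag
Hes5, chr4:154960673-154960972, plus strand: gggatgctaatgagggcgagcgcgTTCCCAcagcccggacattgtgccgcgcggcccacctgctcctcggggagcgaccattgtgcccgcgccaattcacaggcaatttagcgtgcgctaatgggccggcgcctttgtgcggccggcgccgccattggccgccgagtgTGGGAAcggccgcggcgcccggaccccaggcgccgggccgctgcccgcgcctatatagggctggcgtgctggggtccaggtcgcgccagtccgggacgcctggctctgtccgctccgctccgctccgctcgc
Counted from the start of the gene, the copies begin at -135 and -108 in Lfng and at -226 and -82 in Hes5, on opposite strands in each window. Such matches are descriptions of the sequence, not binding sites, and a core this short is frequent.

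The retinal progenitor regulators were also higher in pHes1_EPCs, 15 of 19 by more than 2-fold, against 9.85% of all genes. None was lower, and the median difference was 2.21. Ccnd1, cyclin D1 of the retinal cell cycle, had an FPKM of 28.5 in pHes1_ENCs against 532 in pHes1_EPCs, a ratio of 18.6 (17.5 to 19.9). Zfp36l1, an RNA binding protein, had 7.61 and 160.2, and the growth factor Fgf15 2.28 and 45.6. The transcription factors Sox2, Sox9 and Pax6 had ratios of 13.9, 10.4 and 4.46, all beyond their counting error. Rax, which specifies the eye field and which photoreceptor precursors also use, was nearly level, with 279.6 and 311.

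Related signaling lists were divided, where 9.85% of all genes were more than 2-fold higher and 5.42% lower. Among 18 genes of the Id and BMP pathway, 5 were more than 2-fold higher, 1 was lower and the median was 0.40. The higher ones were Id1, Id2, Id3 and Id4, inhibitors of basic helix-loop-helix factors, and the receptor Bmpr1b, while Smad1, Smad5 and Bmpr1a differed by 0.05, 0.31 and 0.49. Id3 had an FPKM of 6.49 in pHes1_ENCs against 188 in pHes1_EPCs, and Id2 5.99 and 103. The 1 lower gene was the receptor Bmpr2, with 13.0 and 3.91. In the FGF and ETV list 10 of 13 genes were more than 2-fold higher and none lower, with a median of 2.05. It was led by the transcription factor Etv5 (3.75 and 50.9) and the receptor Fgfr1 (2.50 and 19.9), and includes the feedback inhibitors Spry4, Spry1, Dusp6 and Spred1. In the Hippo list 6 of 12 were higher and 1, Tead3, was lower. Ajuba, listed under its older symbol Jub, was missed and is not among the 12 or in their median. Jub was one of the 61 genes that reached an FPKM of 10 in P4 pHes1_EPCs and stayed below 1 in P4 pHes1_ENCs. Yap1, the coactivator, had 1.56 and 22.3, a ratio of 14.2 (11.6 to 18.0), and its target Cyr61 had 0.495 and 7.70.

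All 24 genes of the G2/M list exceeded 2-fold toward pHes1_EPCs at P4, against 9.85% of all genes. Their differences ran from 1.86 to 3.74, with a median of 3.02. Birc5, which encodes survivin of the chromosomal passenger complex, had an FPKM of 2.96 in pHes1_ENCs against 51.8 in pHes1_EPCs, a ratio of 17.5 (12.8 to 25.5). Top2a, the topoisomerase of mitotic chromosomes, had 3.71 and 50.5, and Mki67, the proliferation marker Ki-67, had 3.16 and 40.0. Their ratios were close, at 13.6 (11.8 to 15.8) and 12.7 (11.5 to 14.0). The ratios of the 22 G2/M genes with an FPKM of at least 10 had quartiles of 9.58 and 14.0. The summed FPKM of the list was 59.8 in pHes1_ENCs against 701 in pHes1_EPCs.

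Of 24 S phase genes, 22 were more than 2-fold higher and none was lower, with a median of 2.13 and a wider spread, from 0.62 to 3.73. Beside the counts here, 9.85% of all genes were higher and 5.42% lower by 2-fold. Uhrf1, which recruits the maintenance DNA methyltransferase, had an FPKM of 1.32 in pHes1_ENCs against 29.7 in pHes1_EPCs, and Rrm2, a subunit of ribonucleotide reductase, 1.33 and 29.3. Pcna, the sliding clamp, had 44.5 and 201, a ratio of 4.51 (4.02 to 5.09). The replicative ligase Lig1, at 13.4 and 21.1, and Ccne2, at 2.12 and 4.68, were short of 2-fold on this scale. Among 7 CDK inhibitors, which stop the cycle, Cdkn2c (3.52 and 32.6) and Cdkn1c (21.8 and 55.1) were more than 2-fold higher in pHes1_EPCs. Cdkn1b, or p27, was the most abundant, at 79.8 and 147. The pHes1_EPC library at P4 therefore held transcripts of the cell cycle lists beside those of the Müller glia list, and transcripts of inhibitors beside both. Whether these come from the same cells cannot be told from a bulk library.

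Promoter windows of the cell cycle lists hold letters known from their regulation. The CHR element TTTGAA stood in 16 of the 21 windows found for the G2/M list (76.2%) and in 15.6% of all windows, and the NF-Y box CCAAT in 19 of 21 (90.5%) against 39.2%. Both together stood in 16 of 21 windows of the list and in 6.48% of all. The E2F core TTCCCGC stood in 10 of 20 S phase windows against 6.17% of all, and in none of the 21 G2/M windows, while TTTGAA stood in 2 of the 20 S phase windows. Both strands were searched. The windows below show, of each list, the members with the largest differences among those that hold the letters, with CCAAT and TTTGAA in capitals for Ube2c and Top2a and TTCCCGC in capitals for Uhrf1 and Mcm3, or their reverse complements.
Ube2c, chr2:164769679-164769978, plus strand: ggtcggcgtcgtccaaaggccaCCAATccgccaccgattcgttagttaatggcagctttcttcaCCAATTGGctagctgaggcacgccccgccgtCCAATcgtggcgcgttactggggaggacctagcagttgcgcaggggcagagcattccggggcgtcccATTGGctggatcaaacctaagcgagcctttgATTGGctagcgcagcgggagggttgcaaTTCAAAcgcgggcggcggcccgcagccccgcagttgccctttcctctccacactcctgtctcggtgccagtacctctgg
Top2a, chr11:99024140-99024439, minus strand: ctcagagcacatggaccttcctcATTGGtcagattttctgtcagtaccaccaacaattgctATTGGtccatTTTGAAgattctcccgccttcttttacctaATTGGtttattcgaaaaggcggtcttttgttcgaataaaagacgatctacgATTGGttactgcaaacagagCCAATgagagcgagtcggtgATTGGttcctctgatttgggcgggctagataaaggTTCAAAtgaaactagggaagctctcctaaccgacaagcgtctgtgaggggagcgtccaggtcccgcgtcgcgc
Uhrf1, chr17:56303087-56303386, plus strand: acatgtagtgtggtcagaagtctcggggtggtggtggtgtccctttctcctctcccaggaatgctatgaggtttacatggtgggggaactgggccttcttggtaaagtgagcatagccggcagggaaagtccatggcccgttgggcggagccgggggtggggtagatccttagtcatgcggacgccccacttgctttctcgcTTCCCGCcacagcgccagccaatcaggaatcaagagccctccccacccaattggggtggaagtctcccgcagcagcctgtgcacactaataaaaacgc
Mcm3, chr1:20820263-20820562, minus strand: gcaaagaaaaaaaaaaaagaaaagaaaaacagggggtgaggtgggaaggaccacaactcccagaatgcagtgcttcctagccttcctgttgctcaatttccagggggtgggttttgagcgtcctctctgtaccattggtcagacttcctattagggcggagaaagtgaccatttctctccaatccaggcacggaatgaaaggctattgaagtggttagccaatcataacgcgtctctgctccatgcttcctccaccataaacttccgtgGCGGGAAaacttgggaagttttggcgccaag
Ube2c encodes a ubiquitin conjugating enzyme of mitotic exit, and Mcm3 a subunit of the replicative helicase. Counted from the start of the gene, the E2F letters begin at -48 in Uhrf1 and at 19 in Mcm3, and in Ube2c a forward and a reverse CCAAT share 2 bases.

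Notch ligands and proneural genes were split between the fractions at P4. Of 15 genes, 5 exceeded 2-fold toward pHes1_EPCs and 6 toward pHes1_ENCs, where 9.85% and 5.42% of all genes did so. The median difference was 0.09. The ligand Dll1 had an FPKM of 13.1 in pHes1_ENCs against 89.9 in pHes1_EPCs, a ratio of 6.87 (6.15 to 7.72). The proneural factor Neurog2 had 13.2 and 66.7, a ratio of 5.04 (4.37 to 5.85). Hes6, which opposes Hes1, had 217 and 635. On the other side, Neurod1, a factor of photoreceptor and amacrine differentiation, had 974 in pHes1_ENCs against 195 in pHes1_EPCs, and Neurod4 had 437 and 113. Insm1, a zinc finger repressor of neuroendocrine and neuronal precursors, had 248 and 53.4, a factor of 4.65 (4.37 to 4.96) in favor of pHes1_ENCs. The ligands Jag1 and Jag2 were lower in pHes1_EPCs, by differences of -1.23 and -1.45 (-0.98 for Jag1 with the length trend subtracted), and Dll3 and Dll4 were within 2-fold.

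**Figure D3:**
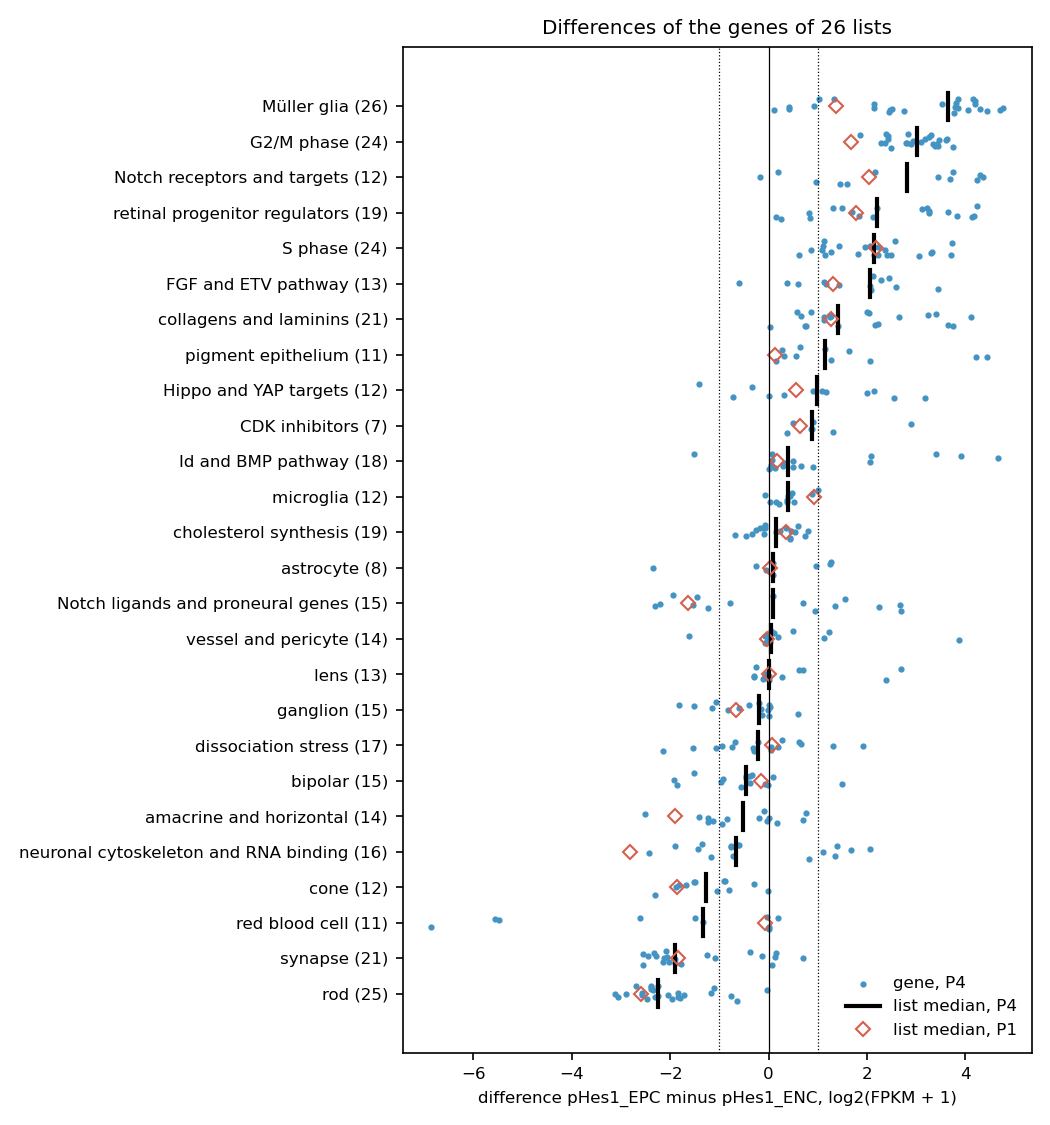
Differences of the genes of 26 lists between pHes1_EPCs and pHes1_ENCs at P4, on the log2(FPKM + 1) scale, with the number of genes in parentheses, a bar at the P4 median and a diamond at the P1 median. The medians run from 3.65 for Müller glia to -2.25 for rods, and the largest gaps between bar and diamond toward higher values are those of the Müller glia, neuronal cytoskeleton and proneural lists.

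The rod genes were lower in P4 pHes1_EPCs. Of 25 genes, 22 were more than 2-fold lower, against 5.42% of all genes, and none was higher, and the median difference was -2.25. The members short of 2-fold were Guca1b, Esrrb and Mef2c, with an FPKM in pHes1_ENCs of 1.69, 0.944 and 0.0883. The summed FPKM was 8485 in pHes1_ENCs against 1765 in pHes1_EPCs, so that pHes1_ENCs had 4.81 times as much. Pdc, which encodes phosducin, had the highest FPKM of all genes with status OK in pHes1_ENCs, 1623, and still reached 309.7 in pHes1_EPCs. Nr2e3, a nuclear receptor that represses cone genes in rods, had 984 and 165, a factor of 5.95 (5.72 to 6.20). Sag, or rod arrestin, had 822 and 172, a factor of 4.77 (4.54 to 5.03), and Crx, the homeobox factor of photoreceptors, had 739 and 140.0, a factor of 5.28 (5.09 to 5.47).

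The rod genes varied in how far they were lower. Among the 21 with an FPKM of at least 10 in pHes1_ENCs, the ratio of pHes1_EPCs to pHes1_ENCs had a median of 0.191 and quartiles of 0.168 and 0.256, from 0.110 for Rpgrip1 to 0.463 for Gnb1, a G protein subunit that other cells also use. The median ratio moved with transcript length, at P1 as well as at P4. At P4 it was 0.256 in the 7 members with the shortest transcripts (871 to 1678 bases), 0.201 in the middle 7 and 0.151 in the longest 7 (2799 to 6950 bases). At P1 the medians were 0.135, 0.0669 and 0.0578 in this order. The P4 ratios of these groups overlapped, from 0.188 to 0.418, 0.167 to 0.266 and 0.110 to 0.463, and Gnb1 is among the longest 7.

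The letters TAATCC, the core bound by Crx and Otx2, stood on either strand in 9 of the 19 windows found for the rod list (47.4%) and in 6.40% of all windows. They stood in none of the S phase and G2/M windows and in 3 of 20 Müller glia windows. The windows of Rpgrip1 and Samd7, a retinal repressor, are those of the rod members with the largest differences that hold the core, which is in capitals as its reverse complement.
Rpgrip1, chr14:52110653-52110952, plus strand: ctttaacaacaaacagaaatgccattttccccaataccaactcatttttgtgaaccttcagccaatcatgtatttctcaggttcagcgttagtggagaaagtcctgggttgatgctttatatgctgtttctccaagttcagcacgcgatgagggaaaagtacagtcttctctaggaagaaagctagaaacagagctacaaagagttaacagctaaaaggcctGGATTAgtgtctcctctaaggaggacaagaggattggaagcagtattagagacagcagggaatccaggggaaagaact
Samd7, chr3:30746043-30746342, plus strand: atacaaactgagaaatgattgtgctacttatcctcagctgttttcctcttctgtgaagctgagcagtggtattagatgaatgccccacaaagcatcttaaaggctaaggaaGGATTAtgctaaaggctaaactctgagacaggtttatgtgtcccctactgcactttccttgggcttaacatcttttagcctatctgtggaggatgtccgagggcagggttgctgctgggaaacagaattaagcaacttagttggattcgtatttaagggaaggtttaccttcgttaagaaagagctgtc
The core begins at -28 in Rpgrip1, which encodes a scaffold protein of the photoreceptor cilium, and at -139 in Samd7.

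Cone genes were lower as well, 7 of 12 by more than 2-fold, against 5.42% of all genes, with a median of -1.27. Opn1sw, the short-wavelength opsin, had an FPKM of 68.6 in pHes1_ENCs against 23.5 in pHes1_EPCs, and Gnb3, a cone G protein subunit, 324 and 64.6. Synapse genes followed the rods, with 15 of 21 more than 2-fold lower, none higher and a median of -1.91. Syp, or synaptophysin, had 478 and 86.9, a factor of 5.50 (5.21 to 5.81), and Snap25 had 336 and 68.4, a factor of 4.91 (4.61 to 5.25). These factors lie within the range seen for rod genes.

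Most genes of inner retinal neurons were low in both fractions at P4. Their median FPKM in pHes1_ENCs was 2.51 for amacrine and horizontal, 0.852 for ganglion and 3.94 for bipolar genes. Tfap2a and Tfap2b were not found by symbol and are not among the amacrine and horizontal genes. The 14 amacrine and horizontal genes had a median difference of -0.52 and a summed FPKM of 96.6 in pHes1_ENCs, of which 62.6 was the glycine transporter Slc6a9, and 41.1 in pHes1_EPCs. The 15 ganglion cell genes summed to 32.2 and 14.8, and the ganglion cell factor Pou4f2 stood at 0.0261 and 0.0128. The 15 bipolar genes summed to 907 in pHes1_ENCs and 329 in pHes1_EPCs. Of these genes 13 had a difference below 0, and 3 were more than 2-fold lower. Only 1, the channel gene Trpm1, was more than 2-fold higher, with 0.0143 in pHes1_ENCs against 1.85 in pHes1_EPCs. Otx2, which photoreceptors share with bipolar cells, had 835 and 292. Among 16 genes of the neuronal cytoskeleton and of RNA binding proteins, 5 were higher and 5 lower. Beside these counts, 9.85% of all genes were higher and 5.42% lower by 2-fold. Tubb3, neuronal tubulin, had 94.9 and 55.4, while Mapt, the microtubule protein tau, had 4.92 and 14.4.

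Genes of the extracellular matrix were higher in pHes1_EPCs. Of 21 collagens, laminins and related genes, 15 were more than 2-fold higher, against 9.85% of all genes, and none was lower. The median was 1.41 and the summed FPKM was 49.7 in pHes1_ENCs against 480.2 in pHes1_EPCs. Col2a1, the collagen of cartilage and vitreous, had 17.5 and 229.9, a ratio of 13.1 (12.3 to 14.1). The type IX collagen genes Col9a1, Col9a2 and Col9a3, whose product binds to type II collagen, had differences of 3.75, 3.40 and 3.24, and the membrane collagen Col23a1 had 4.12. In contrast, none of 19 genes of cholesterol synthesis was beyond 2-fold in either direction, with a median of 0.15 and a range from -0.68 to 0.80.

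Markers of cells from outside the neural retina were examined because no other selection of the sorted cells is described. The shares of all genes beside these counts are 9.85% more than 2-fold higher and 5.42% lower. Of 11 pigment epithelium genes, 6 were higher in pHes1_EPCs by over 2-fold, and the summed FPKM was 10.3 in pHes1_ENCs against 92.8 in pHes1_EPCs. Pmel, a melanosome protein, had 0.737 and 36.5, Ttr, transthyretin, 0.308 and 23.1, and Dct, a melanin synthesis enzyme, 2.84 and 15.0, while Best1 had 0.0418 and 0.266. Lrat, Mlana and Slc45a2 were listed at 0 in pHes1_ENCs and had 0.112, 2.08 and 0.235 in pHes1_EPCs. At P1 the list summed to 7.04 and 6.19. Pmel is thus one of the 15 highest genes and also a member of a list with a higher sum, and the part of pigment cells in its difference was not tested. The vessel and pericyte list was higher by its sum, 27.5 against 203, but 189 of the latter was Kdr, a VEGF receptor that retinal progenitors also express. Of the 14 genes 3 were more than 2-fold higher and 1 lower, the endothelial cadherin gene Cdh5 was at 0 in both fractions, and Pecam1 had 0.142 and 0.0885. The 12 microglia genes summed to 10.4 and 17.8, with 1, Fcer1g, just beyond 2-fold and none at 0. The 13 lens genes summed to 2.57 and 15.2, with the crystallin genes Crybb1 and Cryab higher and Crybb2 and Lim2 at 0 in both.

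Red blood cell genes went the other way, and 6 of 11 were more than 2-fold lower in pHes1_EPCs, with sums of 514 and 8.86. The embryonic globin genes Hbb-y and Hbb-bh1 were at 0 in both. Hba-a1 had an FPKM of 205 in pHes1_ENCs against 3.61 in pHes1_EPCs, and Beta-s had 180.0 and 2.87. Hbb-b1, a close copy of Beta-s, had 114 and 0.000817, and the reads of these copies may have been split differently in each library. Of 17 genes that respond to dissociation, 2 were more than 2-fold higher and 3 lower in pHes1_EPCs, with a median of -0.22. Of all genes, 9.85% were higher and 5.42% lower by that much. Fos and Egr1 were higher, by 1.92 and 1.30, while Ier3, Junb and Nr4a1 were lower, by -2.15, -1.53 and -1.07.

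The most abundant transcripts of the fractions differed in kind. In pHes1_ENCs, Pdc, Nr2e3, Neurod1 and the lactate dehydrogenase gene Ldha were among the 10 with the highest FPKM. In pHes1_EPCs, Ckb, creatine kinase, led with 3399 against 1205 in pHes1_ENCs, a ratio of 2.82 (2.76 to 2.88), and Dbi, Crym and Nnat were among the 10. Ckb and the elongation factor gene Eef1a1 were in both groups of 10, as was Tpt1p, a copy of Tpt1. Tpt1p and Gm5506, a copy of the enolase gene Eno1, are near-identical to expressed genes, and the split of reads between them is uncertain. Ldha had 1198 and 634, a difference of -0.92.

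The pHes1_EPC group of 10 also held ribosomal protein genes, which have short transcripts. The 80 ribosomal protein genes found by symbol, a list added after their values had been seen, had a median difference of 1.06 at P4 and 0.28 at P1, and 52 of them were more than 2-fold higher in P4 pHes1_EPCs. Their transcripts had a median length of 855 bases. This bears on every list, because the difference depended on transcript length. In 10 bins of the 12128 expressed genes with an annotated length, the median difference at P4 went from 0.63 in the bin of shortest transcripts (up to 1194 bases) to -0.32 in the bin of longest transcripts (6344 bases and more), a span of 0.96. In the first bin 28.9% of genes were more than 2-fold higher and 5.11% lower, and in the last 12.4% and 18.0%. At P1 the span was 0.34, from 0.18 to -0.15. Subtracting the trend gave 2035 genes higher and 1109 lower at 2-fold. Among the lists it moved the median of the pigment epithelium genes from 1.15 to 0.97, below 2-fold, and that of the Hippo genes from 0.99 to 1.24, above it. What lies behind the trend was not tested.

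**Figure D4:**
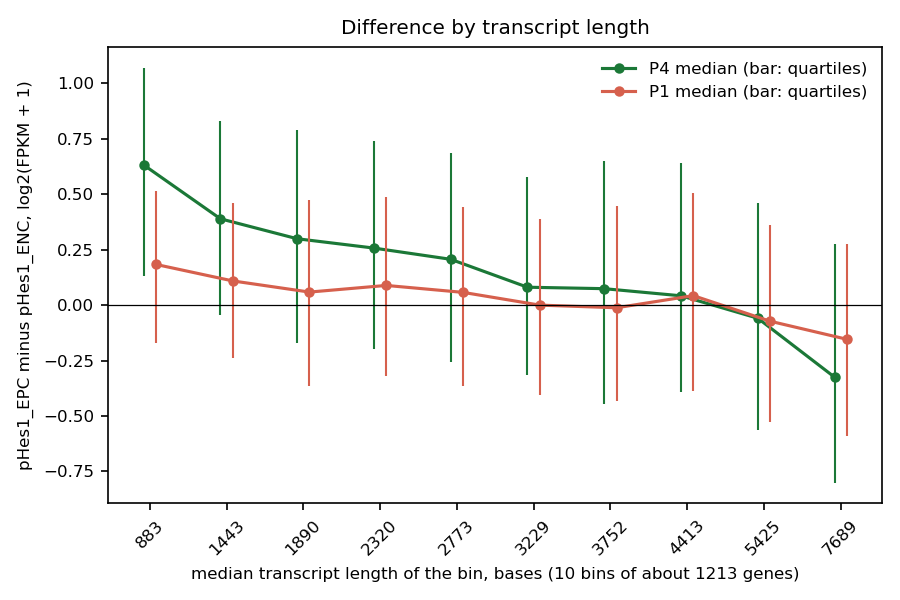
Median difference between pHes1_EPCs and pHes1_ENCs in 10 bins of transcript length, on the log2(FPKM + 1) scale, with bars for the quartiles of the genes in each bin, at P4 (green) and P1 (red). At P4 the medians descend from 0.63 to -0.32, and at P1 from 0.18 to -0.15.

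Several lists had wider differences at P4 than at P1, with the larger change in pHes1_ENCs. At P1, 6.1% of genes were more than 2-fold higher and 6.79% lower in pHes1_EPCs. For the G2/M list, 24 of 24 genes had a larger difference at P4 than at P1, with medians of 3.02 and 1.68. From P1 to P4 the median change of this list on the log2(FPKM + 1) scale was -1.02 in pHes1_EPCs and -2.35 in pHes1_ENCs. Over the 12390 genes that reached an FPKM of 1 in a P4 library, the median change was 0.20 in pHes1_EPCs and 0.01 in pHes1_ENCs. For the Notch list the median change was -0.07 and -0.90 in this order, and for the progenitor regulators -0.07 and -1.25. Lfng, for instance, went from 86.8 to 80.8 in pHes1_EPCs and from 17.0 to 3.15 in pHes1_ENCs. The S phase list was lower at P4 in both fractions, with median changes of -1.48 in pHes1_EPCs and -1.27 in pHes1_ENCs. Its median difference was 2.18 at P1 and 2.13 at P4. The Müller glia list was different, with a median change of 1.12 in pHes1_EPCs and -0.24 in pHes1_ENCs. Car14 went from 6.63 to 66.3 in pHes1_EPCs and from 4.11 to 2.65 in pHes1_ENCs, and Crym from 314 to 1158.5 and from 51.7 to 31.8.

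Rod transcripts had higher levels at P4 than at P1 in both fractions. Among the 21 rod genes with an FPKM of at least 10, the level at P4 was a median of 7.95 times that at P1 in pHes1_ENCs and 16.7 times in pHes1_EPCs, and it was higher for 21 of 21 genes in each. The ratio of pHes1_EPCs to pHes1_ENCs was higher at P4 for 18 of the 21, with medians of 0.0742 at P1 and 0.191 at P4. Neurod4 showed the widest gap among the proneural genes that stayed lower, with 347 in P1 pHes1_ENCs against 10.4 in P1 pHes1_EPCs, and 437 against 113 in the P4 fractions.

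Some genes were lower in pHes1_EPCs at P1 and higher at P4. Neurog2 had an FPKM of 74.3 in P1 pHes1_ENCs against 19.3 in P1 pHes1_EPCs, and at P4 it had 13.2 and 66.7. Olig2, a factor of neurogenic progenitors, had 27.6 and 5.17 at P1, and 5.50 and 20.9 at P4. Mapt had 32.3 and 3.14 at P1, and 4.92 and 14.4 at P4, and Nnat, or neuronatin, had 1010.3 and 300.4 at P1, and 289 and 1067 at P4. In each of these the level was lower at P4 than at P1 in pHes1_ENCs and higher in pHes1_EPCs, so that the fractions changed places. Of the Notch ligands and proneural genes, 14 of 15 had a higher difference at P4 than at P1, Jag1 being the exception, as did 16 of 16 genes of the neuronal cytoskeleton list. Over expressed genes in general this held for 7779 of 12390.

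**Figure D5:**
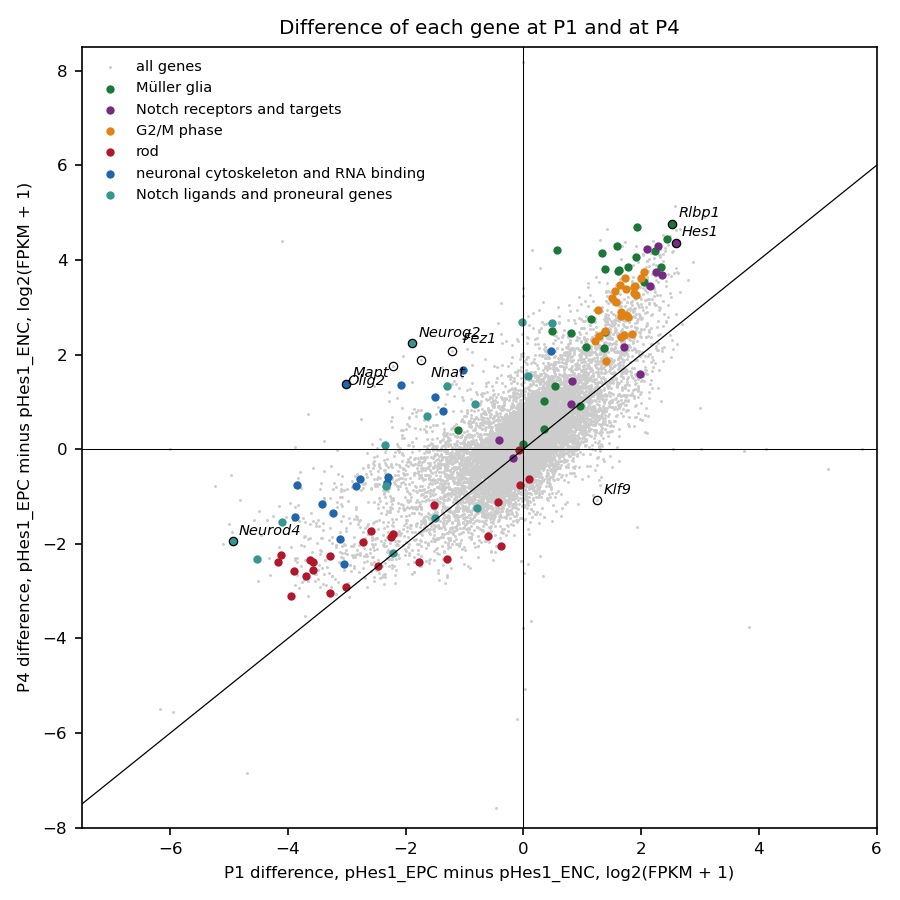
Difference of each gene between pHes1_EPCs and pHes1_ENCs at P1 (x axis) and P4 (y axis), on the log2(FPKM + 1) scale, with 6 gene lists colored and the line of equal differences. Mapt, Neurog2, Olig2, Nnat and Fez1 lie in the upper left, lower in pHes1_EPCs at P1 and higher at P4, and Klf9 lies in the lower right.

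At 2-fold on both sides, 27 genes changed from lower to higher in pHes1_EPCs between P1 and P4, and 3 changed the other way, or 26 and 2 without failed estimates such as Ankrd33b. Among the 2 was Klf9, a transcription factor induced by thyroid hormone and glucocorticoids, which had an FPKM of 4.97 in P1 pHes1_ENCs against 13.3 in P1 pHes1_EPCs, and at P4 it had 17.0 and 7.51. Among the 10 genes with the largest move toward pHes1_ENCs were also Purb, Scube3, Crb2 and Arhgef26, with P4 differences of -2.25, -2.37, -1.42 and -0.60. Some entries of the tables could not be read as levels. Eif4g2, a translation initiation factor, had 189.8 in P4 pHes1_ENCs and is listed at 0 in P4 pHes1_EPCs, and Srsf5, a splicing factor, had 291 in P4 pHes1_EPCs and is listed at 0 in the other 3 libraries, in each case with the status FAIL at the 0. Gspt1 in P4 pHes1_EPCs and Ankrd33b in P4 pHes1_ENCs are such zeros as well. These genes enter the counts over all genes and none of the lists.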

How the data were processed

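EGFP-positive and EGFP-negative cells were sorted from dissociated retinas at P1 and P4, and 1 library of total RNA was made per fraction and age with random primers and sequenced as single-end reads of 36 bases. Per the sample labels and methods, the authors used bcl2fastq 1.8.4, TopHat2 2.0.8b and Cufflinks 2.1.1 with the mouse genome mm9, and the deposited values are FPKM per gene with a 95% interval. The annotation given to Cufflinks is not given in the sources used here. Each table held 23021 lines. Small RNA symbols were left out (798 lines), and each of the 234 symbols with more than 1 line was represented by its line of highest FPKM, giving 21826 genes. Differences were taken on log2(FPKM + 1), and genes beyond 1 were called 2-fold. The deposited interval lay below the FPKM for short transcripts (FPKM over interval midpoint was 1.20 in the shortest 1 of 10 length bins in pHes1_EPCs and 1.00 in the longest), so it was centred on the FPKM with its relative width kept. FPKM are not counts, there was 1 library per group, and no test was run. Steps were tested on simulated data. Transcript lengths came from the GENCODE vM1 annotation for mm9, matched by symbol and overlapping position, with the longest transcript kept. Promoter windows came from RefSeq for GRCm38.p6, matched by symbol.

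The members and 26 gene lists (420 symbols, of which 414 were found by symbol) were chosen with earlier results of these data known. Their medians are therefore descriptions and not independent support. Genes named are the 15 highest and 15 lowest by P4 difference, the 10 with the highest FPKM per fraction, the 10 with the largest change of the difference between ages in each direction, and list members. Ajuba, Tfap2a, Tfap2b, Map1b, Map2 and Ahsp were not found under these symbols, so the list counts and medians leave them out. Ajuba is present under its older symbol Jub, and whether the others are present under other symbols was not checked. Alternatives were other pseudocounts, FPKM minimums, scalings, line handling, status OK, subtraction of the length trend and, chosen after seeing the data, interval midpoints in place of FPKM. Analysis used Python 3.11.15, numpy 2.4.6, pandas 2.3.3 and scipy 1.17.1. Some genes that the rule would name are not reported here.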

Additional observations from a re-analysis of the deposited data

Results flagged for a closer look

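For 12 genes named above or held in the lists, the difference between pHes1_EPCs and pHes1_ENCs pointed in opposite directions at P4 and P1 and was beyond 2-fold at both ages. With 1 library per group, none of these contrasts between the ages was tested. All of them except Klf9 were higher in pHes1_EPCs at P4 and lower at P1. On the log2(FPKM + 1) scale the P4 and P1 differences were 2.25 and -1.89 for Neurog2, 1.75 and -2.21 for Olig2 and 1.34 and -1.29 for Gadd45g, a growth arrest gene. For genes of the neuronal cytoskeleton they were 1.38 and -3.01 for Mapt, 1.36 and -2.07 for Stmn4, 1.11 and -1.50 for Dclk1 and 1.68 and -1.02 for Dpysl4. They were 1.88 and -1.75 for Nnat, 2.08 and -1.22 for Fez1, 1.30 and -1.09 for Cdkn1c and 1.13 and -1.18 for the collagen gene Col6a1. Klf9 pointed the other way, with -1.08 and 1.26, and its P4 difference was -0.99 once the length trend was subtracted. With quantile normalization the P4 differences of Col6a1, Dclk1 and Gadd45g also fell inside 2-fold, at 0.81, 0.82 and 0.96. Over all genes, 27 switched toward pHes1_EPCs and 3 toward pHes1_ENCs at this size, or 26 and 2 without genes whose estimate failed.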

How the results depend on the processing

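Among 455 genes named or held in the lists and 26 lists, no P4 difference beyond 2-fold changed sign under the alternatives run, while 43 genes and 4 lists inside 2-fold did. Of 268 genes beyond 2-fold, 243 stayed so throughout. The exceptions in the text, at their smallest, were Ckb (0.75), Gpm6b (0.91), Fcer1g (0.54), Dclk1 (0.82), Col6a1 (0.81), Gadd45g (0.96), Pdgfra (0.99), Jag1 (-0.98) and Klf9 (-0.99). Of 187 genes inside 2-fold, 119 stayed so, and those in the text that did not include Ldha, which reached -1.34. Of 12 lists beyond 2-fold, 11 stayed so, the exception being pigment epithelium (0.97 with the length trend subtracted). Of 14 lists inside it, 7 stayed so, and the others reached a median of 1.24 for Hippo targets, 1.34 for CDK inhibitors, 1.29 for Id and BMP genes, 2.38 for lens, 3.87 for vessels, -1.26 for amacrine and horizontal cells and -1.68 for bipolar cells. The vessel value, taken with an FPKM of at least 10, equals the difference of the highest gene of that list, Kdr. The lens value was taken with an FPKM of at least 1, which only 3 of its genes reached. The count of genes higher in pHes1_EPCs, 2150, became 4390 without a pseudocount and 1291 among genes that reached an FPKM of 10. The count of lower genes, 1184, became 1963 with a pseudocount of 0.1, 3182 without one and 779 with an FPKM of at least 10. The median P4 difference of the G2/M phase list was 3.46 with a pseudocount of 0.1. The median P4 difference of the rod list was -2.54 with the same total, -2.41 with median-of-ratios scaling and -2.53 with quantile normalization. The trend of the P4 difference with transcript length, from the first to the last bin, was 1.07 with a pseudocount of 0.1, 1.19 with an FPKM of at least 10 and 0.0959 after subtraction, where the subtraction itself removes it. For the other changes the cause was not tested. Interval midpoints, an alternative chosen after seeing the data, gave 2095 higher and 1162 lower genes. No paired analysis was possible because each group had 1 library, and for the same reason no replicate could be left out. Depth limits genes near an FPKM of 1, and counting error is the only error the ranges cover.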
